A study of Homo sapiens with 12 samples.

Results

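The transcriptomes of TAMs cocultured with MMP28-overexpressing pancreatic cancer cells (OE-MMP28) were compared with those of TAMs cocultured with cancer cells that carried an empty vector (control). The 6 libraries whose labels name these 2 conditions were compared, of 12 libraries in the series. The libraries with a neutralizing antibody entered only the filter, the scaling and the estimate of the spread. The TAMs were THP-1 cells, a human monocytic leukemia line, turned into macrophage-like cells with the phorbol ester PMA. They shared medium with AsPC-1 cells, a human pancreatic cancer line, across a Transwell membrane. The AsPC-1 cells of both groups carried a lentiviral GFP-Puro construct and had been selected with puromycin, with the MMP28 cDNA in one group and the empty vector in the other. Neither group received a neutralizing antibody, and the labels give no coculture time. Each group held 3 libraries, all from a single THP-1 line. No label says that the 3 were separate cultures, so p-values measure the spread between libraries within the groups of the series, which may be technical. All control libraries came from vector cocultures, so any batch shared by a group and the group itself cannot be told apart. Of 58735 genes in the deposited table, 16046 passed a filter on low counts and were tested.

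MMP28, or epilysin, is a secreted zinc protease of the matrix metalloproteinase family, which cuts matrix and surface proteins outside the cell. Tumor-associated macrophages receive cytokines, chemokines and growth factors from cancer cells, and they respond by changing which genes they transcribe. A classical example is the interferon response. Interferon bound to its receptor activates JAK kinases, these phosphorylate STAT proteins, and the STATs enter the nucleus with IRF9 and switch on genes that carry an interferon-stimulated response element (ISRE).

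Totals of the 6 libraries lay between 16468200 and 17626105 counts, with 22677 to 24404 genes detected by 1 count or more. A count of 3 corresponded to 0.165 to 0.187 CPM (TMM-scaled counts divided by the library total and brought to a common size), the floor below which no level was read, and floors cover counting error only. Mitochondrial genes took 7.44% to 9.95% of the control counts and 8.41% to 12.3% of the OE-MMP28 counts. The first principal component, with 46.1% of the variance, separated the groups. The second, with 30.7%, placed OE-MMP28 replicates 2 and 3 at opposite ends, and the mean SD of log2 CPM was 0.26 in OE-MMP28 and 0.17 in control. MMP28 itself had 0 counts in all 6 TAM libraries, so these libraries do not check the overexpression in the cancer cells. Of 9 macrophage markers, 8 were tested. Their summed level was 2041 to 2316 CPM in control and 2198 to 3500 CPM in OE-MMP28. CD14, itself among the called genes, made up 31.9% to 50.6% of that sum. Without CD14 the sum was 1495, 1391 and 1471 CPM in control and 1366, 1265 and 1728 CPM in OE-MMP28, so replicates 1 and 2 lay below control and replicate 3 above it. CD68, a lysosomal protein widely used to mark macrophages, was assigned only 1 to 4 counts per library, and whether reads of CD68 went to another gene model was not tested. The sum of 10 epithelial markers was 4.79 to 5.98 CPM in control and 2.80 to 3.75 CPM in OE-MMP28, with EPCAM at 0 in every library, and MUC1 gave most of it. The sums of a longer list of 24 epithelial genes overlapped, at 13.2 to 17.3 CPM in control and 9.41 to 16.4 CPM in OE-MMP28, and within that list S100P had 29 counts over the control libraries and 85 over OE-MMP28. Markers of undifferentiated myeloid cells summed to 66.4 to 79.6 CPM and 56.3 to 121 CPM. In bulk RNA, fewer cells of a type and less RNA per cell cannot be told apart.

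TAMs cocultured with MMP28-overexpressing cells had far more genes at lower than at higher levels. With edgeR's quasi-likelihood test and Benjamini-Hochberg adjustment at 0.05, 84 genes rose, which is 0.523% of the genes tested, and 423 fell, which is 2.64%. The median log2 fold change over all genes tested was 0.02, close to 0. Among the falls, 223 were of at least 1 on the log2 scale, 81 of at least 2 and 33 of at least 3, whereas 29 rises reached 1. All 507 called genes had groups that did not overlap, beside 9.63% of all genes tested with every OE-MMP28 library above control and 11.6% with every one below. Protein-coding genes made up 68 of the rises and 380 of the falls. Genes on 3 interferon lists accounted for 29.1% of the falls. These lists were written by hand, so falls outside them may include further interferon-induced genes. Outside the 3 interferon lists, 84 genes rose and 300 fell.

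**Figure D1:**
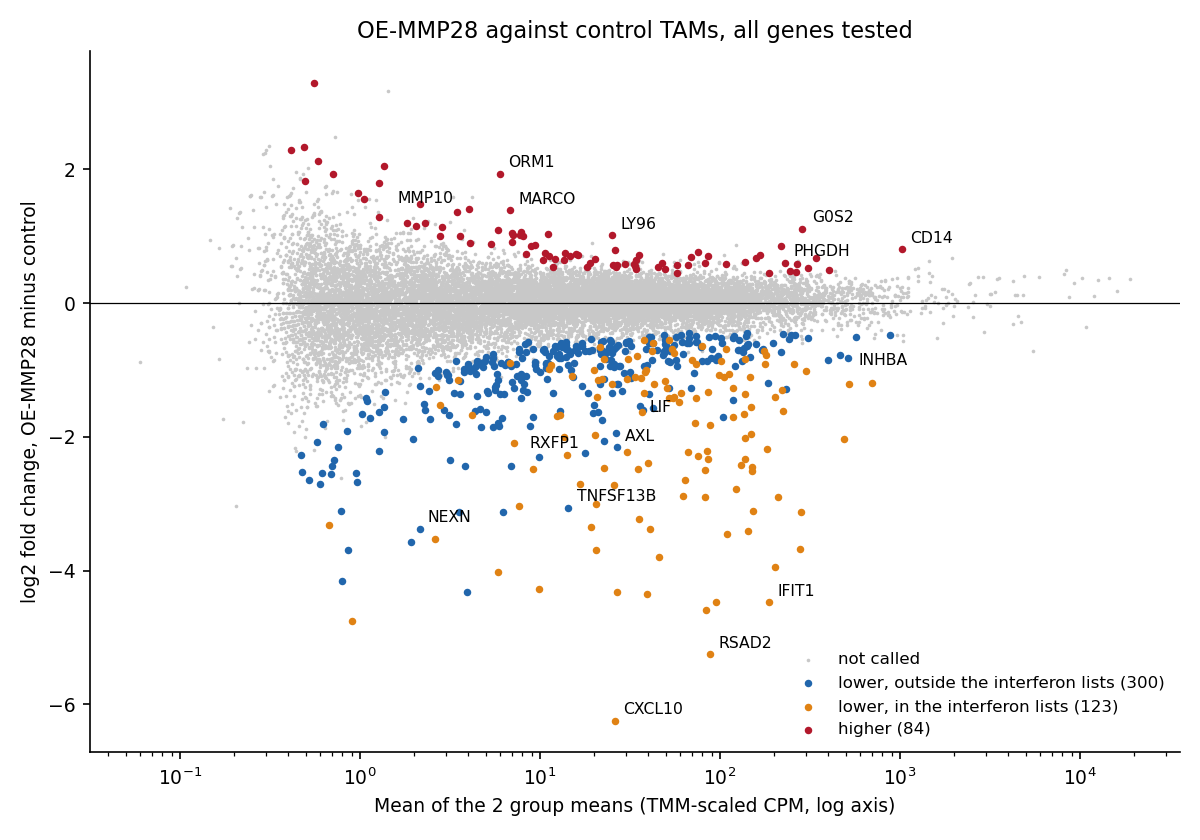
Log2 fold change of OE-MMP28 minus control (vertical axis) against the mean of the 2 group means in TMM-scaled CPM (log horizontal axis) for the 16046 genes tested. Grey points were not called, red points rose (84), blue points fell outside the interferon lists (300) and orange points fell within them (123), and the orange points reach furthest down, to CXCL10 at -6.24.

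The interferon response was the gene group with the largest falls. Of 215 genes on 3 lists (sensors and signalling, antiviral effectors, chemokines), 186 were tested, 123 fell and 0 rose, and their median log2 fold change was -1.11. CXCL10, a chemokine that draws activated T cells through CXCR3, lay at 48.3, 63.8 and 43.5 CPM in the control libraries and at 1.37, 0.234 and 0.375 CPM in the OE-MMP28 libraries. It fell 75.7-fold (log2 fold change -6.24 ± 0.34 SE, adjusted p = 1.26e-09), and 167-fold without OE-MMP28 replicate 1. The other OE-MMP28 libraries held 4 and 6 counts. RSAD2, or viperin, an enzyme that makes a chain-terminating nucleotide, was at 162, 212 and 144 CPM in control and at 5.66, 4.21 and 3.68 CPM in OE-MMP28 (log2 fold change -5.25 ± 0.25 SE, adjusted p = 5.48e-10). Its neighbour CMPK2, a mitochondrial nucleotide kinase that overlaps RSAD2 on the other strand, fell by 4.59 on the log2 scale. The strand setting of the read counting is not given in the sources used here, so reads in the shared stretch cannot be assigned to one of the pair. In each of these genes the lowest control library was more than an order of magnitude above the highest OE-MMP28 library.

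Short stretches before the transcription start of 5 of these genes are shown because they hold the letters of the core ISRE, GAAANNGAAA or TTTCNNTTTC on the other strand. The windows were the 250 bases before each RefSeq start (GRCh38.p14), and capitals mark the motif, the only one searched.
CXCL10, chr4:76023669-76023747, minus strand: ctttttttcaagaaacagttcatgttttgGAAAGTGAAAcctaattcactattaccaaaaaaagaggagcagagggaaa
RSAD2, chr2:6877592-6877681, plus strand: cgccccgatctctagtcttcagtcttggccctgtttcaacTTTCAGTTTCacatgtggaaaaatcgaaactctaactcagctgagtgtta
IFIT1, chr10:89392480-89392569, plus strand: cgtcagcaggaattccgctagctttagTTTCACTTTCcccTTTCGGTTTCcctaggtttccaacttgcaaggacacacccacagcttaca
IFITM1, chr11:313960-314039, plus strand: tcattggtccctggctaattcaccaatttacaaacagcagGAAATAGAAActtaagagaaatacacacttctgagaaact
IFI44L, chr1:78620335-78620424, plus strand: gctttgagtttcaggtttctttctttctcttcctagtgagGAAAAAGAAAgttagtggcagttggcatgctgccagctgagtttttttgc
Of the 8 interferon genes with the largest falls, 6 had a RefSeq promoter entry and 5 of these held the motif. CMPK2 had an entry without it. The motif was present in 1061 of 35116 RefSeq promoters, or 3.02%. This share is per promoter, whereas a gene was counted if any of its promoters held the motif. Promoter entries existed for 371 of the 507 called genes and for 11221 of the 16046 tested, and no comparison over all called genes was made. A match describes letters in a window and is not a measured binding site.

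Other antiviral effectors that fell bind foreign RNA, guard membranes or modify proteins. IFIT1 and IFIT2, which bind foreign RNA ends, both fell by 4.47 on the log2 scale, IFIT1 from 361 ± 74.5 to 16.2 ± 5.32 CPM (mean ± SD of 3 libraries, as in all later values). IFITM1, a membrane protein that blocks virus entry, fell by 4.35. OASL, an OAS-like partner of RIG-I, fell by 4.32. IFI44L fell by 4.28. IFITM1 shares sequence and position with IFITM2, so the split of reads between the pair is uncertain. Of the 134 antiviral effectors tested, 98 fell, 0 rose, and the median was -1.20. Chosen after their values were seen, the dynamin-like GTPase MX1 went from 382 ± 64.0 to 24.6 ± 7.42 CPM and the ubiquitin-like modifier ISG15 from 275 ± 61.8 to 31.8 ± 9.25 CPM. Across the list, 132 of the 134 lay below 0 and 2 above it. Every OE-MMP28 library was below every control library for 110 of them, as for 11.6% of all genes tested. The 36 effectors that did not pass included the complement protease gene C1R at 0.11, the highest value of the list. They also included the lysosomal reductase IFI30 at -0.11. C1R and IFI30 were chosen after their values were seen and do not stand for the 36.

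Genes for interferon signalling were lower in part. Of 44 sensors and signalling genes tested, 22 fell and 0 rose, with a median of -0.65. IRF1, a transcription factor of the interferon gamma response, fell by 0.80 (adjusted p = 0.00446). Chosen after their values were seen, the RNA helicase sensor DDX58 (RIG-I) fell by 2.90, STAT2 by 1.41 and IRF9 by 0.90. IRF9 lost its call without any single control replicate or OE-MMP28 replicate 2 (adjusted p up to 0.106). The receptor chains were not called in either direction. IFNAR1 was at 102 ± 1.37 CPM in control and 105 ± 19.8 CPM in OE-MMP28 (adjusted p = 0.933), and IFNAR2, IFNGR1 and IFNGR2 had log2 fold changes of 0.01, 0.34 and 0.28. IFNB1 and IFNG, which encode interferons, did not pass the filter on low counts. At an unadjusted p of 0.05, which 5.93% of all genes tested passed upwards and 8.61% downwards, 3 genes of the lists were higher, namely IFNGR1, IFNGR2 and TLR7, and TLR7, an endosomal RNA receptor, reached 0.94 with an adjusted p of 0.066.

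Within the interferon-induced chemokines, 3 of 8 tested fell. CXCL11, a second CXCR3 ligand, went from 11.1 ± 3.74 to 0.663 ± 0.457 CPM (a log2 change of -4.02 ± 0.42 SE, adjusted p = 4.02e-06). Without OE-MMP28 replicate 1 the fall of CXCL11 was 25.8-fold in place of 16.2-fold. CCL8 fell by 2.10. CCL2, the main monocyte chemoattractant, was at 414 ± 13.1 CPM in control and 465 ± 60.7 CPM in OE-MMP28 (adjusted p = 0.657), and CCL5 had a log2 fold change of -0.08. The falls of this group were therefore not shared by all its chemokines. CCL8 and CCL5 were chosen after their values were seen.

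**Figure D2:**
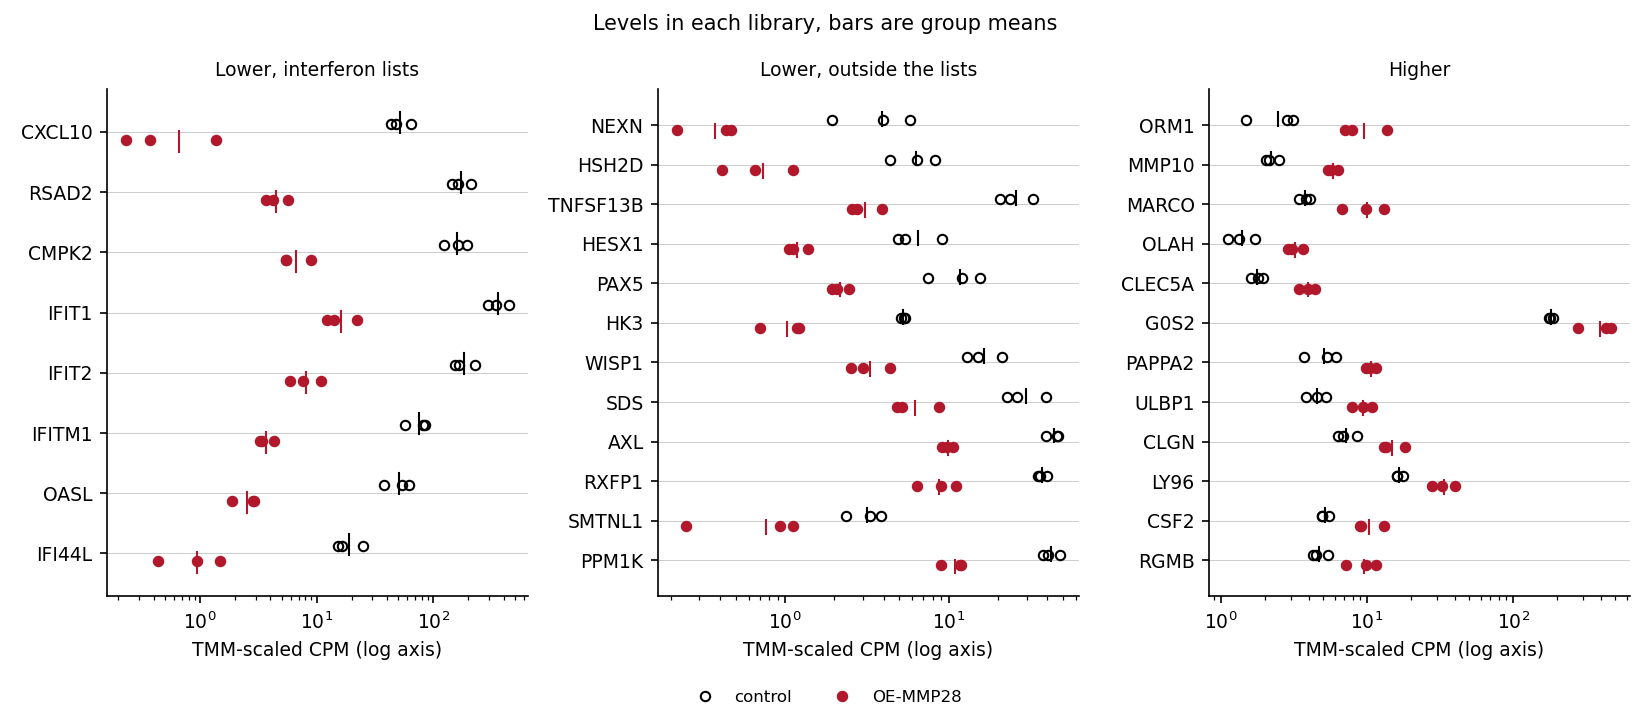
TMM-scaled CPM (log horizontal axis) in each library for the genes with the largest changes, 8 that fell within the interferon lists (left), 12 that fell outside them (middle) and 12 that rose (right). Open black points are control libraries, red points OE-MMP28 libraries and bars group means, and the 2 groups of points do not overlap for any of these genes.

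Outside the interferon lists, a large fall was that of TNFSF13B, which encodes the B cell survival factor BAFF (chromosome 13, 108251240 to 108308484, plus strand). Its level was 23.8, 32.6 and 20.7 CPM in control and 2.75, 3.92 and 2.56 CPM in OE-MMP28, an 8.33-fold fall (log2 fold change -3.06 ± 0.26 SE, adjusted p = 2.6e-07). AXL, a receptor tyrosine kinase for GAS6 that helps macrophages to clear dying cells, lay at 45.8, 46.4 and 39.3 CPM in control and at 10.7, 9.77 and 9.11 CPM in OE-MMP28 (log2 fold change -2.15 ± 0.19 SE, adjusted p = 3.26e-07). Both had all OE-MMP28 libraries far below all control libraries. Although neither was on an interferon list, windows before RefSeq starts of both held the same letters as the genes above, and their stretches are shown for that reason. The TNFSF13B stretch lies inside the gene interval given above, so the RefSeq start used differs from the start of that interval. For AXL too, the stretch comes from a RefSeq start whose window held the motif, which need not be its main start.
TNFSF13B, chr13:108269607-108269696, plus strand: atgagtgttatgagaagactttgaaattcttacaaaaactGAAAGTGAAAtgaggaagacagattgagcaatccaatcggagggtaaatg
AXL, chr19:41226527-41226616, plus strand: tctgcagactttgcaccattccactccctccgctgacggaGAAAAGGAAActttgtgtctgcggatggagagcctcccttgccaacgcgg
Of the 12 largest falls outside the lists, 10 had a promoter entry and these 2 held the motif.

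The other large falls outside the lists were of genes with varied roles. Among protein-coding genes with at least 50 counts on average in the higher group, NEXN, an actin-binding protein best known from muscle, had the largest, from 1.95, 5.83 and 3.97 CPM to 0.220, 0.468 and 0.437 CPM (a log2 change of -3.37 ± 0.47 SE, adjusted p = 0.000152). HSH2D, an adaptor of hematopoietic cells, fell by 3.12, but it overlaps RAB8A on the same strand. Transcription factors were among them, HESX1 with a fall of 2.44 and the B cell factor PAX5 with one of 2.43, from 11.7 ± 4.05 to 2.16 ± 0.268 CPM. HK3, a hexokinase of myeloid cells, was at 5.13, 5.37 and 5.33 CPM in control and 1.21, 0.702 and 1.19 CPM in OE-MMP28 (log2 fold change -2.35 ± 0.26 SE, adjusted p = 9.53e-06). SDS, serine dehydratase, which breaks serine down to pyruvate, fell by 2.24 from 29.4 ± 8.66 to 6.23 ± 2.12 CPM. WISP1, a secreted matricellular protein, fell by 2.30, and the relaxin receptor gene RXFP1 fell by 2.07. PPM1K, a mitochondrial phosphatase that promotes breakdown of branched-chain amino acids, fell by 1.94. SMTNL1 fell by 2.03, yet its call was lost without control replicate 2 or 3 or OE-MMP28 replicate 1 or 3 (adjusted p up to 0.111). The other 11 stayed called whichever library was left out.

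The 84 rises were smaller than the falls, and the largest among well-measured coding genes was that of ORM1, the acute phase protein orosomucoid (chromosome 9, 114323056 to 114326475, plus strand). ORM1 was at 3.13, 2.83 and 1.48 CPM in control and 7.04, 7.89 and 13.7 CPM in OE-MMP28 (log2 fold change 1.94 ± 0.29 SE, adjusted p = 0.000304). Its near-identical neighbour ORM2 makes the split of reads uncertain. MMP10, stromelysin 2, a matrix protease, was at 2.12, 2.02 and 2.49 CPM in control and at 5.72, 6.37 and 5.43 CPM in OE-MMP28 (log2 fold change 1.40 ± 0.20 SE, adjusted p = 0.000161). MARCO, a scavenger receptor for bacteria and particles, was at 3.83, 4.10 and 3.43 CPM in control and 9.90, 6.78 and 13.1 CPM in OE-MMP28 (log2 fold change 1.39 ± 0.23 SE, adjusted p = 0.00115). All 3 genes were scarce in control, yet none had an OE-MMP28 library within the control range.

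A second set of rises was of about 2-fold and included a more abundant transcript. G0S2, an inhibitor of the triglyceride lipase ATGL, lay at 179, 187 and 177 CPM in control and at 432, 278 and 465 CPM in OE-MMP28 (log2 fold change 1.11 ± 0.17 SE, adjusted p = 0.000612). CSF2, the growth factor GM-CSF, went from 5.12 ± 0.333 to 10.4 ± 2.26 CPM, a 2.02-fold rise (adjusted p = 0.00172). LY96, or MD-2, the partner of TLR4 that binds lipopolysaccharide, rose from 16.6 ± 1.01 to 33.6 ± 6.18 CPM (a log2 change of 1.02 ± 0.17 SE, adjusted p = 0.00114). ULBP1, a stress ligand of the natural killer receptor NKG2D, rose by 1.05, the testis-enriched chaperone CLGN by 1.04, and the BMP coreceptor RGMB by 1.01. OLAH, a thioesterase of fatty acid synthesis, rose by 1.20, the myeloid lectin CLEC5A by 1.14, and the IGFBP protease PAPPA2 by 1.06. The calls of these last 3 were lost without some control libraries, with adjusted p up to 0.0814 for OLAH (replicates 2 and 3), 0.0687 for CLEC5A (replicates 2 and 3) and 0.0892 for PAPPA2 (replicates 1 and 3). Among noncoding genes, chosen after its values were seen, the antisense RNA MTUS2-AS1 had 1, 2 and 2 counts in control and 27, 13 and 13 in OE-MMP28. Its control counts lay below the floor, so the size of its rise was not read.

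Inflammatory mediators moved in both directions, gene by gene. Of 59 inflammatory cytokines and NF-kB targets tested, 1 rose (CSF2) and 5 fell, with a median of 0.03, which was 0.01 without OE-MMP28 replicate 3 and 0.10 without replicate 2. LIF, an interleukin-6 type cytokine, was at 54.7, 40.8 and 64.4 CPM in control and 23.4, 14.7 and 16.9 CPM in OE-MMP28 (log2 fold change -1.54 ± 0.28 SE, adjusted p = 0.00245). IL36B, of the IL-1 family, fell from 123 ± 3.07 to 71.0 ± 5.19 CPM. Chosen after their values were seen, SERPINB2, an inhibitor of plasminogen activators, fell by 1.20 and the adhesion molecule VCAM1 by 1.26, and the interleukin genes IL1B and IL6 had log2 fold changes of 0.09 and 0.02.

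Among 16 chemokines beyond the interferon list, 3 neutrophil attractants fell and 1 monocyte attractant rose, with a median of 0.13 (0.06 without OE-MMP28 replicate 3 and 0.20 without control replicate 3). CXCL5 was at 168, 128 and 185 CPM in control and 93.1, 78.1 and 78.5 CPM in OE-MMP28 (log2 fold change -0.95 ± 0.18 SE, adjusted p = 0.00316), and CXCL6 went from 43.9 ± 6.42 to 20.1 ± 2.60 CPM (-1.13 ± 0.17 SE, adjusted p = 0.00034). PPBP, which gives rise to CXCL7, fell by 1.34, and CCL4, a monocyte attractant, rose from 19.2, 16.5 and 21.4 CPM to 36.0, 25.8 and 37.5 CPM. Reads of CCL4 may be split with its near-identical copy CCL4L2. CXCL8, which binds the same receptors as CXCL5 and CXCL6, was at 8375 ± 1181 CPM in control and 10256 ± 956 CPM in OE-MMP28, with overlapping groups (adjusted p = 0.494). The receptors ACKR3, a CXCL12 scavenger, and CCR1 fell by 0.94 and 0.46. The calls of PPBP (without control replicate 1 or 3, adjusted p up to 0.0737), CCL4 (any single control replicate or OE-MMP28 replicate 1 or 3, up to 0.212), ACKR3 (control replicate 1 or 3 or OE-MMP28 replicate 2, up to 0.0953) and CCR1 (any single library, up to 0.208) were lost with a library left out.

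Antigen presentation changed in the peptide-loading genes. TAP1, a subunit of the transporter that carries peptides into the endoplasmic reticulum, was at 373, 340 and 278 CPM in control and 154, 111 and 143 CPM in OE-MMP28 (log2 fold change -1.28 ± 0.20 SE, adjusted p = 0.000612). TAP1 overlaps PSMB9 on the other strand. NLRC5, the transactivator of MHC class I genes, fell from 114 ± 13.9 to 64.5 ± 4.86 CPM, and TAP2 fell by 0.51. Of the other 13 MHC class I genes tested, 0 were called, and HLA-B and B2M, named after their values were seen, had log2 fold changes of 0.19 and -0.28. In the class II list 1 of 14 genes fell, the promoter-binding factor RFX5, by 0.51. TAP2 lost its call without control replicate 2 or OE-MMP28 replicate 1 (adjusted p up to 0.0978), and RFX5 without control replicate 1 or 2 (up to 0.108).

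Receptors of bacterial ligands and antibodies were among the rises. CD14, the lipopolysaccharide coreceptor, was at 821, 650 and 784 CPM in control and 1226, 933 and 1772 CPM in OE-MMP28 (log2 fold change 0.80 ± 0.19 SE, adjusted p = 0.0272). With LY96 it made up the 2 rises among 13 Toll-like receptor genes tested, and 0 fell. FCGR1A, the high-affinity IgG receptor, rose from 26.7 ± 2.02 to 44.0 ± 9.87 CPM and FCGR2A, a low-affinity one, from 48.7 ± 4.83 to 66.3 ± 3.95 CPM. FCGR1A has near-identical copies, between which its reads may be split. LAIR1, an inhibitory collagen receptor, rose by 0.69 (adjusted p = 0.00224). The highest of the 3 CD14 values came from OE-MMP28 replicate 3. That library also had the largest sum of the other macrophage markers, and their part in the result was not tested. CD14 lost its call without any single control replicate or OE-MMP28 replicate 1 or 3 (adjusted p up to 0.174), FCGR1A without control replicate 1 or 2 (up to 0.0761), and FCGR2A without any single library (up to 0.278).

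Few polarization markers outside the interferon response were called. Of 17 M1 markers tested, 5 fell, among them CXCL10, CXCL11, IDO1 and IRF1, and 1 rose (FCGR1A), and 7 of the 17 were also on an interferon list. Of 14 M2 markers tested, 0 rose and 0 fell, with a median of -0.11, and 1 and 3 passed an unadjusted p of 0.05 upwards and downwards. Over all genes tested, 0.523% rose and 2.64% fell, and 5.93% and 8.61% passed the unadjusted threshold. At such shares a list of 14 genes can be without a call, so the absence of calls says little about M2 markers. CHI3L1, a chitinase-like protein, was at 15020 ± 894 CPM in control and 16986 ± 3089 CPM in OE-MMP28 (adjusted p = 0.679). CD86, a costimulatory M1 marker, was at 1.05 ± 0.389 and 1.39 ± 0.656 CPM, and CD163, the hemoglobin scavenger receptor used as an M2 marker, at 3.64 ± 0.391 and 4.05 ± 0.496 CPM (adjusted p = 0.745 and 0.881). MRC1 (CD206) had at most 4 counts in any of the 6 libraries and NOS2 at most 7, too few to test.

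The genes of other proteins that the study follows were not called in the TAMs. The study measured ANXA2, MAPK phosphorylation and VEGFA in cancer cells, largely as protein. Transcript levels in TAMs therefore do not test those results. ANXA2, the annexin that the study pairs with MMP28, was at 252, 236 and 237 CPM in control and 293, 284 and 393 CPM in OE-MMP28 (log2 fold change 0.42 ± 0.14 SE, adjusted p = 0.135). Its groups did not overlap, but the difference did not pass the test. VEGFA was at 839 ± 37.6 and 774 ± 105 CPM (adjusted p = 0.783), and its receptors FLT1 and NRP1 had log2 fold changes of -0.11 and -0.02. The kinase genes MAPK3, MAPK8 (JNK1) and MAPK14 (p38) ranged from -0.13 to 0.11. IL10 was at 4.21 ± 0.299 and 3.04 ± 0.418 CPM (log2 fold change -0.47, adjusted p = 0.391), and ITGAM (CD11b) had a log2 fold change of -0.17. Each IL-8 receptor gene, CXCR1 and CXCR2, had at most 3 counts in these libraries.

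Several growth factors fell. Of 39 matrix, growth factor and angiogenesis genes tested, 5 fell and 0 rose, with a median of -0.12. INHBA, the activin A subunit, was at 595, 619 and 770 CPM in control and 360, 437 and 323 CPM in OE-MMP28 (-0.83 ± 0.15 SE, adjusted p = 0.00298). The EGF receptor ligand AREG fell by 0.82 and BMP2 by 0.76, and COL22A1, a collagen gene chosen after its values were seen, fell by 0.64. It lost its call without control replicate 2 or OE-MMP28 replicate 1 (adjusted p up to 0.0849). Among 22 metalloproteinase and inhibitor genes tested, MMP10 was the only one called. In the acute phase and complement list, ORM1 and the C5a receptor gene C5AR1 rose, and 2 genes fell, among them SERPINA1 (alpha-1 antitrypsin), by 0.86. S100A16, a calcium-binding protein, fell by 0.87 and the laminin-binding integrin gene ITGA3 by 0.59. Calls were lost for AREG without control replicate 3 (adjusted p = 0.0544), for BMP2 without control replicate 1 (0.0661), for C5AR1 without any single control replicate or OE-MMP28 replicate 1 (up to 0.116), and for ITGA3 without any single control replicate or OE-MMP28 replicate 1 or 2 (up to 0.159).

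Amino acid metabolism, which the study examined in these TAMs, held calls in both directions. PHGDH, the first enzyme of serine synthesis, was at 169, 168 and 129 CPM in control and 270, 207 and 364 CPM in OE-MMP28 (log2 fold change 0.85 ± 0.17 SE, adjusted p = 0.00734), the only call among 19 serine and one-carbon genes tested. SDS, which consumes serine, was among the large falls above. Of 47 genes of amino acid breakdown and interconversion tested, 1 rose and 3 fell, with a median of -0.00145. ASS1, which makes argininosuccinate from citrulline and aspartate, rose from 127 ± 21.2 to 209 ± 51.5 CPM. LAP3, a leucine aminopeptidase that is also on an interferon list, fell from 314 ± 42.5 to 127 ± 12.8 CPM (a log2 change of -1.30 ± 0.14 SE, adjusted p = 6.52e-06). Both remaining falls, IDO1 and QPRT, lie in the kynurenine pathway of tryptophan breakdown. IDO1 is also on an interferon list, and it had 16, 21 and 26 counts in control and 4, 0 and 2 in OE-MMP28. The call of QPRT depended on single libraries, as given below. The fitted fall of IDO1 was 9.99-fold, and 18.2-fold without OE-MMP28 replicate 1. The other OE-MMP28 libraries held 0 and 2 counts, below the floor, so the size of this fall was not read. Among 29 transporters tested, SLC7A5 (LAT1, leucine uptake) rose by 0.59 and SLC1A2 (glutamate) and SLC6A8 (creatine) fell by 1.04 and 0.50.

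In the list of ATF4 targets, which cells switch on when amino acids are short, 3 of 37 genes rose and 1 fell, and 28 lay above 0 with a median of 0.15, which was 0.31 without OE-MMP28 replicate 2 and 0.10 without replicate 3. The risers were VLDLR, a lipoprotein receptor, at 0.76, the secreted glycoprotein STC2 at 0.66, and SLC7A5, and ATF3 fell by 0.51. Of 37 aminoacyl-tRNA synthetases tested, SARS and MARS rose, by 0.53 and 0.49, and 27 lay above 0, with a median of 0.17 that was 0.10 without OE-MMP28 replicate 3. MARS overlaps DDIT3 and ARHGAP9 on the other strand. VLDLR, LAP3 and IDO1 stayed called whichever library was left out. PHGDH lost its call without control replicate 3 (adjusted p = 0.0647) and ATF3 without control replicate 1 or 2 or OE-MMP28 replicate 1 (up to 0.0968). Without any single control replicate or OE-MMP28 replicate 1 or 3, calls were lost for ASS1 and SLC7A5 (both up to 0.152), STC2 (up to 0.0849) and MARS (up to 0.138). QPRT (up to 0.168) and SLC6A8 (up to 0.260) lost theirs without any single control replicate or OE-MMP28 replicate 1 or 2, SARS without any single control replicate or OE-MMP28 replicate 3 (up to 0.110), and SLC1A2 without control replicate 1 or 3 or OE-MMP28 replicate 2 or 3 (up to 0.159).

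**Figure D3:**
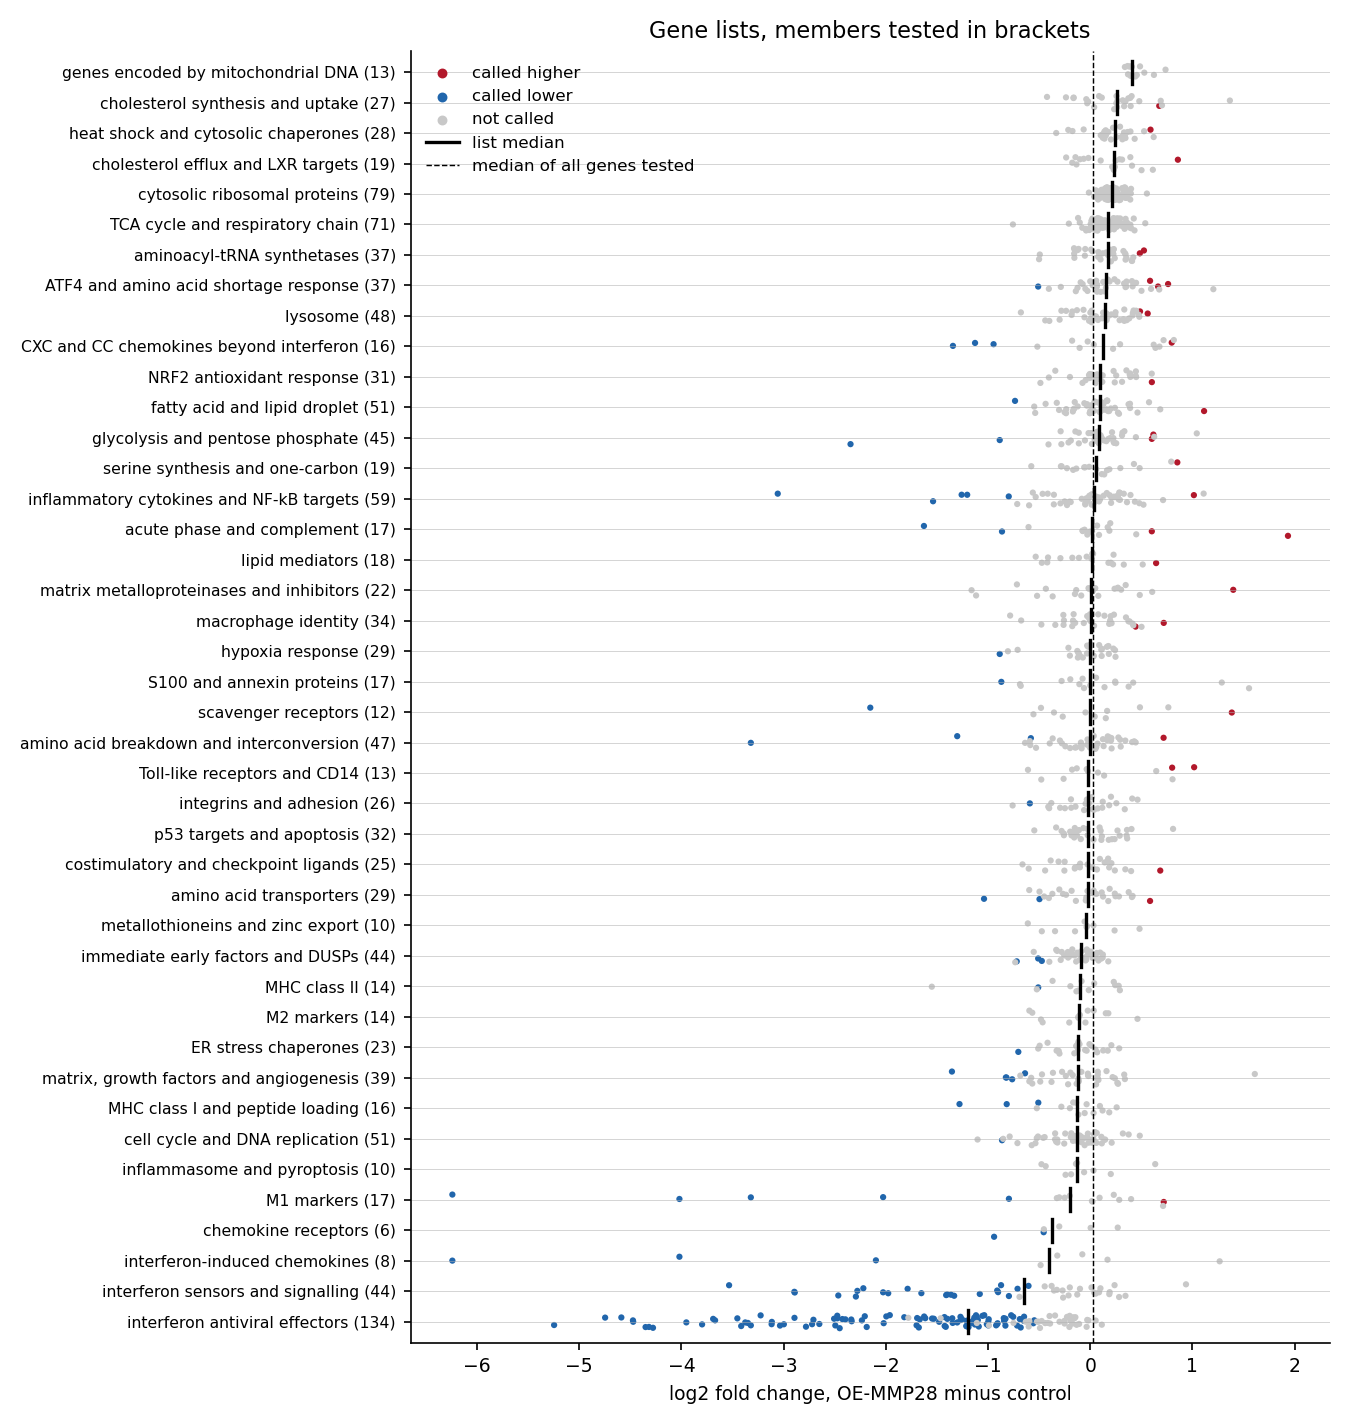
Log2 fold change of OE-MMP28 minus control (horizontal axis) for every tested member of the gene lists, ordered by median, with the number of members tested in brackets. Points are genes (red rose, blue fell, grey not called), black bars are list medians and the dashed line is the median of all genes tested (0.02), and the antiviral effectors stand lowest with a median of -1.20.

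Sugar and lipid genes were called singly. Of 45 glycolysis and pentose phosphate genes tested, 2 rose and 2 fell. FBP1, a gluconeogenic phosphatase, rose from 109 ± 5.26 to 168 ± 23.5 CPM. PFKFB4, which sets the level of a glycolysis activator, was at 69.7, 68.0 and 69.3 CPM in control and 40.9, 32.6 and 38.5 CPM in OE-MMP28 (log2 fold change -0.89 ± 0.13 SE, adjusted p = 0.000192). It overlaps UCN2 on the same strand and was the only call among 29 hypoxia response genes. Besides G0S2, the fatty acid list held MGLL, monoglyceride lipase, which fell from 274 ± 17.9 to 164 ± 22.6 CPM (adjusted p = 0.00252). CYP27A1, which makes 27-hydroxycholesterol, rose from 6.35 ± 0.305 to 11.5 ± 0.533 CPM (a log2 change of 0.86 ± 0.15 SE, adjusted p = 0.00144). MSMO1, a sterol synthesis oxidase, rose from 122 ± 6.06 to 195 ± 4.88 CPM (0.68 ± 0.13 SE, adjusted p = 0.00333). FBP1 lost its call without control replicate 2 or 3 (adjusted p up to 0.0793).

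Several housekeeping groups lay to one side of 0 with hardly a call. In the cholesterol synthesis list 20 of 27 genes lay above 0, with a median of 0.26, and 10 of the 27 passed an unadjusted p of 0.05 upwards, as 5.93% of all genes tested did. In the heat shock and cytosolic chaperone list 24 of 28 lay above 0 with a median of 0.24, and HSPA1B, an inducible HSP70, rose by 0.59. Leaving out each library in turn kept the chaperone median between 0.22 and 0.26 and the cholesterol median between 0.22 and 0.33. Cytosolic ribosomal proteins had 78 of 79 genes above 0 and a median of 0.22, but 0 were called and 5 passed the unadjusted threshold. Their median was -0.01 without OE-MMP28 replicate 3 and 0.34 without OE-MMP28 replicate 2. Against the control mean, 78 of the 79 were higher in OE-MMP28 replicate 3, 59 in replicate 1 and 26 in replicate 2, while control replicates 1, 2 and 3 had 52, 72 and 11. The TCA cycle and respiratory chain list behaved alike, with 60 of 71 above 0, a median of 0.17 and one of 0.02 without OE-MMP28 replicate 3. All 13 genes encoded by mitochondrial DNA lay above 0, median 0.41, with 0 called. That median ranged from 0.24 to 0.59 over the left-out libraries, and control replicate 3 also had all 13 above the control mean. HSPA1B lost its call without any single control replicate or OE-MMP28 replicate 3 (adjusted p up to 0.0933).

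**Figure D4:**
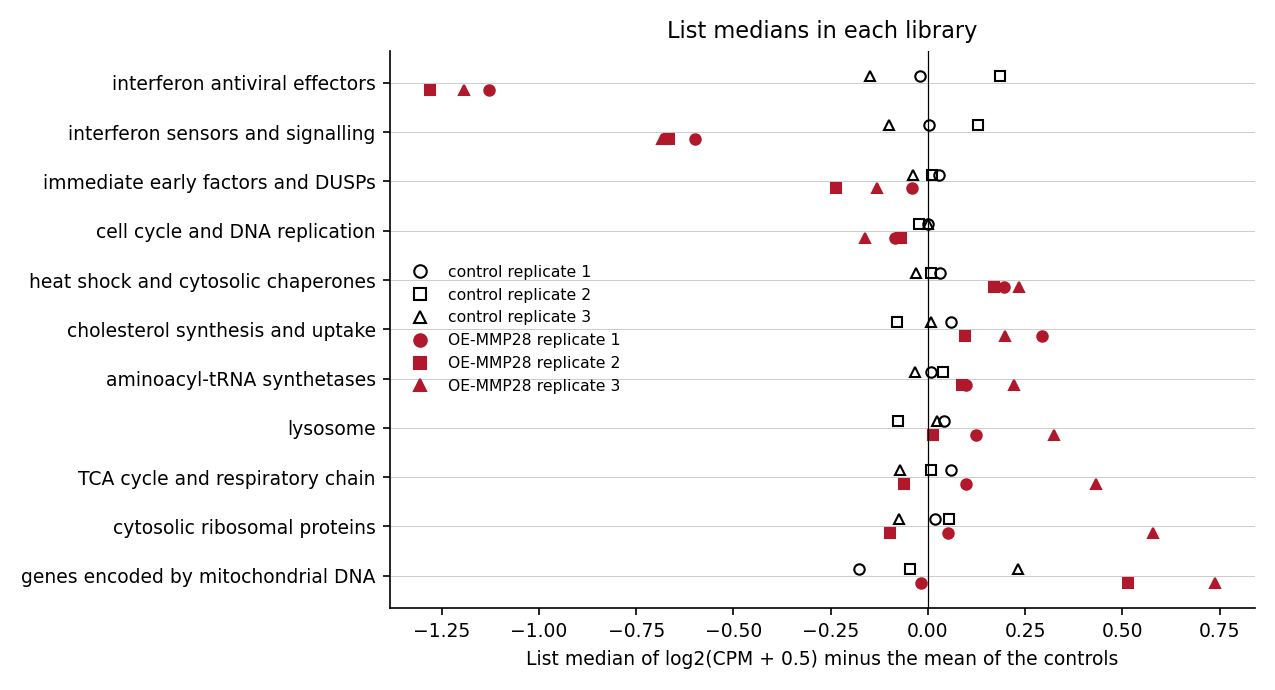
Median over list members of log2(CPM + 0.5) minus the mean of the control libraries (horizontal axis), for 11 lists in each library. Open black symbols are control and filled red symbols OE-MMP28, with circles, squares and triangles for replicates 1, 2 and 3, and the ribosomal protein list shows OE-MMP28 replicate 3 apart from the other OE-MMP28 libraries.

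Stress, growth and lysosome genes gave few calls in number. Called genes made up 6.82% of the immediate early list (all falls), 4.17% of the lysosome list (all rises) and 1.96% of the cell cycle list (all falls). Over all genes tested, 0.523% rose and 2.64% fell, and the difference from these shares was not tested. Of 44 immediate early factors and DUSP phosphatases tested, 31 lay below 0 with a median of -0.09 (-0.14 without OE-MMP28 replicate 1 and -0.06 without replicate 2), and ATF3, the orphan receptor NR4A3 and the mRNA decay factor ZFP36L2 fell. ZFP36L2 went from 1021 ± 24.0 to 735 ± 66.1 CPM. Of 51 cell cycle genes tested, 35 lay below 0 with a median of -0.13 (-0.07 without OE-MMP28 replicate 3), and RRM2, a ribonucleotide reductase subunit, fell by 0.86. Of 48 lysosomal genes, 36 lay above 0 with a median of 0.14 (0.09 without OE-MMP28 replicate 3), and the protease gene CTSK and the ganglioside activator gene GM2A rose by 0.56 and 0.49. PLA2G15, a lysosomal phospholipase, rose by 0.64 as the only call among 18 lipid mediator genes. PDIA4, an oxidoreductase of the endoplasmic reticulum, fell by 0.70 as the only call among 23 ER chaperones. PDIA4 lost its call without control replicate 1 or 3 (adjusted p up to 0.0769), CTSK without control replicate 1 or 2 or OE-MMP28 replicate 1 or 3 (up to 0.212), and RRM2 without control replicate 2 or 3 or any single OE-MMP28 replicate (up to 0.187). Without any single control replicate or OE-MMP28 replicate 1 or 3, calls were lost for NR4A3 (up to 0.228), ZFP36L2 (up to 0.139), GM2A (up to 0.143) and PLA2G15 (up to 0.188).

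No call was made among 10 inflammasome genes, 32 p53 targets or 10 metallothionein and zinc transport genes. By edgeR at an unadjusted p of 0.05, these lists had 0 genes higher and 2 lower, 5 higher and 2 lower, and 1 higher and 2 lower, beside 5.93% higher and 8.61% lower of all genes tested. The inflammasome list left out genes of the interferon lists, among them the inflammasome genes AIM2 and CASP1, which fell. Both were chosen after their values were seen. AIM2 stayed called whichever library was left out, and CASP1 lost its call without control replicate 2 or OE-MMP28 replicate 1 (adjusted p up to 0.155). NLRP3, the inflammasome sensor, was at 106 ± 4.53 CPM in control and 89.3 ± 5.08 CPM in OE-MMP28 (log2 fold change -0.24, adjusted p = 0.343). CDKN1A, the p53 target p21, was at 655 ± 55.5 and 520 ± 91.1 CPM (-0.33, adjusted p = 0.270). MUC1, a mucin of epithelia counted here as an AsPC-1 marker, fell from 3.62 ± 0.244 to 1.80 ± 0.227 CPM (-1.01 ± 0.25 SE, adjusted p = 0.0341). It lost its call without any single control replicate or OE-MMP28 replicate 1 or 2 (adjusted p up to 0.125).

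Falls that lay beside each other on a chromosome were found at 14 places, taking 3 or more called genes with gaps of at most 100000 bases (GRCh38). No such run was found among the rises. The longest were GBP3, GBP1, GBP2, GBP4 and GBP5 at chr1:89006666-89272804, and TAP2, PSMB8, PSMB8-AS1, PSMB9 and TAP1 at chr6:32821833-32859585. Runs of 4 were IFIT2, IFIT3, IFIT1 and IFIT5 at chr10:89283694-89421001, PGGHG with IFITM2, IFITM1 and IFITM3 at chr11:289135-327537, and PPM1K, HERC6, HERC5 and PYURF at chr4:88257620-88523813. PPM1K, PYURF and PGGHG were on no interferon list. Runs without a gene of the interferon lists also occurred, such as COL6A3, MLPH and RAB17 at chr2:237324003-237601614. PSMB8-AS1, TAP1, PSMB9, CMPK2 and RSAD2 overlap a neighbour in these runs, so some of their reads may be shared. Of the called genes named above, IRF1, IFIT1, IFIT2, INHBA, SDS, MGLL, VLDLR, RGMB, CLEC5A, FBP1 and GM2A also overlap a gene on the other strand.

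The interferon falls depended least on single libraries. Of 123 falls within the lists, 110 were called in each of the 6 fits that left out 1 library, against 124 of 300 falls outside them and 17 of 84 rises. Protein-coding genes among those 17 were ORM1, MMP10, MARCO, G0S2, ULBP1, CLGN, LY96, CSF2, RGMB, CYP27A1, VLDLR, LAIR1, MSMO1 and IFITM10, the last chosen after its values were seen. Without control replicates 1, 2 and 3 in turn, 24, 25 and 34 genes rose and 276, 272 and 305 fell. Without OE-MMP28 replicates 1, 2 and 3, 48, 145 and 66 rose and 294, 367 and 370 fell. Outside the interferon lists the falls numbered 160, 162 and 189 without each control replicate and 180, 247 and 251 without each OE-MMP28 replicate. The number of rises thus moved by more than 1.5 times without any single control replicate or without OE-MMP28 replicate 1 or 2, and the falls did so without control replicate 1 or 2.

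**Figure D5:**
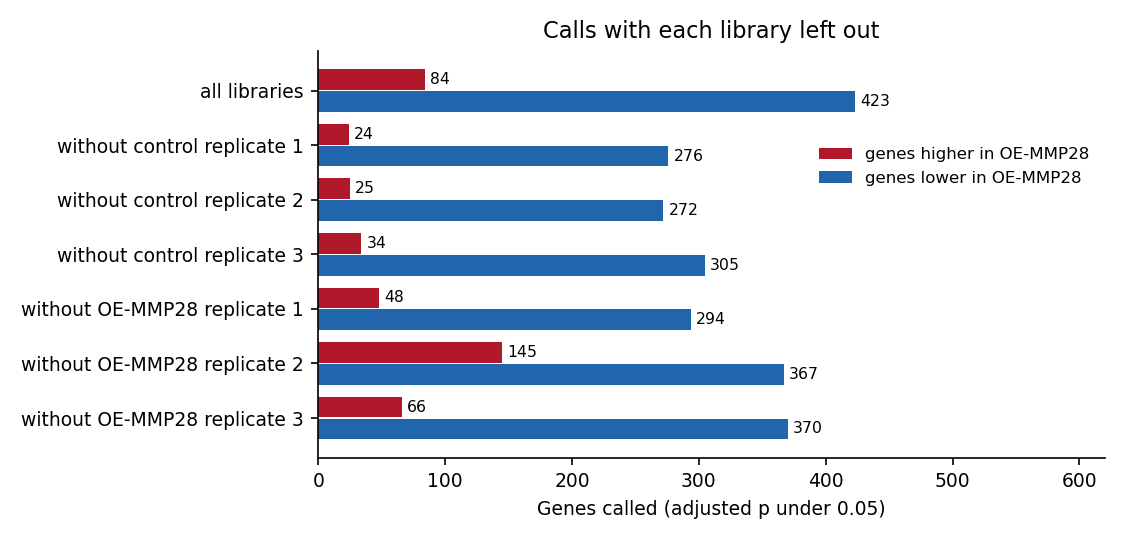
Number of genes called at an adjusted p under 0.05 (horizontal axis, from 0) with all libraries and with each of the 6 libraries left out. Red bars are rises and blue bars falls, and the rises range from 24 without control replicate 1 to 145 without OE-MMP28 replicate 2, beside 84 with all libraries.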

How the data were processed

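RNA of cocultured TAMs was sequenced after library preparation with the NEBNext Ultra kit. Per the labels' processing notes, the authors aligned reads with HISAT2 2.0.5 and counted them with featureCounts 1.5.0-p3, so the deposited values are raw counts per gene of GENCODE 29 (GRCh38). The strand setting is not given in the sources used here. The authors also deposited FPKM per gene, used here only in alternatives. Their own comparisons give fold changes (log2) with p-values before and after adjustment and were not used.

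Counts of all 4 groups were fitted in edgeR 4.0.16 (R 4.3.3) with 1 coefficient per group, after filterByExpr and TMM scaling. The contrast OE-MMP28 minus control (3 against 3) was tested by the quasi-likelihood test with Benjamini-Hochberg adjustment over 16046 genes and called at 0.05. Log2 fold changes use a prior count of 0.125, and CPM are TMM-scaled. On simulated data with 200 changed genes of 15711, the fit recovered 73% of changes of 1 and 98% of changes of 2 (log2). Of its calls 7.07% were false, above the threshold of 0.05. The changed genes were drawn above a minimum mean count, so recovery of scarcer genes was not measured. Every group was simulated with the same dispersion, whereas the real libraries spread more in OE-MMP28 than in control.

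The comparison and the 44 gene lists, written by hand, were chosen with earlier results of these data known. Named genes were protein-coding, past the adjusted threshold, with 50 counts or more on average in the group with the higher level, and with groups that did not overlap. Of these, the 12 largest changes per direction outside the interferon lists, the 8 largest within them and up to 4 members with the smallest adjusted p of every other list were taken, or the 2 most abundant members where none was called. Genes of proteins named by the study and cell type markers were added, and a few genes that meet the rule are not reported here. Alternatives were DESeq2 1.42.0, limma 3.58.1 (voom, and log2(FPKM + pseudocount)), other scalings and filters, offsets for GC content and length, a replicate block, other thresholds and each library left out. Promoter stretches are RefSeq sequences of GRCh38.p14. Figures were drawn with matplotlib 3.10.9.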

Additional observations from a re-analysis of the deposited data

How the results depend on the processing

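Depth limits scarce genes, since genes under 1 CPM had a median SE of 0.51 and those over 100 CPM one of 0.14 (log2). All 507 called genes kept their sign in every alternative in which they were tested. With all libraries 84 genes rose and 423 fell. The number of rises was 139 with DESeq2, 169 without the filter on low counts, 190 with the GC offset (189 outside the interferon lists), 951 at an unadjusted p of 0.05 (948 outside) and 29 where a change of 1 (log2) was required, and the cause was not tested for the first 3. Falls numbered 1381 at the unadjusted threshold and 223 with that minimum change. Outside the interferon lists, where 300 genes fell, they numbered 465 with the GC offset, 1241 unadjusted and 125 with the minimum. Leaving out 1 library gave 24 to 145 rises, 272 to 370 falls and 160 to 251 falls outside the lists, as named in the report. The remaining alternatives gave counts within 1.5 times the original. With only the 6 libraries compared in the fit, 472 genes were called by the same test, and 425 of these were among the 507. Named genes that lost their calls there included CCR1, CTSK, FCGR2A, HSPA1B, NR4A3, QPRT, RRM2, SLC6A8 and ZFP36L2 (adjusted p up to 0.0995, for FCGR2A). With the replicate number as a replicate block, 86 genes rose and 428 fell, and 469 of these 514 calls were shared with the 507. Deviations of same-numbered libraries of the groups had r = 0.16, 0.04 and -0.17, and those of differently numbered ones ranged from -0.27 to 0.25. With 3 libraries per group these values cannot settle whether the numbers pair them. Over all alternatives, named single genes kept their direction and side of the threshold in 2364 values, lost the call in 199 and gained one in 5. Medians of the lists for inflammatory cytokines, scavenger receptors, macrophage identity, metalloproteinases, acute phase, amino acid breakdown, hypoxia and lipid mediators, all near 0, changed sign between scalings.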
